A study of Mus musculus with 14 samples.

Results

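Solute carriers (Slc genes) are membrane proteins that move sugars, amino acids, nucleotides, metals and ions across the plasma membrane and the membranes of organelles. The 96 transporters described here were chosen by name and by level: the symbol had to be Slc followed by a family number, letters and a member number, which leaves out the Slco genes, and the highest of 14 library values had to reach 20 FPKM (fragments mapped per kilobase of transcript, scaled to the mapped fragments of the library). Of the 23174 rows of the deposited table, 356 carried such a symbol and 96 of these met the level, while 110 never reached 1 FPKM. The 3 members just inside the level were Slc35f6 with a highest value of 20.04, Slc48a1 with 20.2 and Slc6a15 with 20.5 FPKM, and the 3 just outside were Slc46a1 with 19.8, Slc35a3 with 19.8 and Slc25a16 with 19.7 FPKM. A further 12 symbols begin with Slc but go on past the pattern, and 2 of them, Slc9a3r1 at 84.9 and Slc7a6os at 48.4 FPKM, reached the level and were left out, neither being a carrier itself. By substrate the members comprised 20 mitochondrial carriers, 19 carriers of amino acids and peptides, 16 of metals and heme, 14 of nucleosides and nucleotide sugars, 8 of inorganic ions and pH, 7 of lipids, choline and vitamins, 6 of sugars, 4 of phosphate and lysosomal anions and 2 of monocarboxylates.

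The study followed mouse embryonic stem cells (ESCs) with and without the zinc finger factor Zfp281 on the way to extraembryonic endoderm (XEN) cells, the in vitro counterpart of the primitive endoderm. WT3 is a wild-type line, KO3.34 and KO2.6 are Zfp281 knockout lines (the cell line field of the second reads differently from its title, which is used here), and Rescue3.34 is KO3.34 with Zfp281 put back. All 4 lines have the strain background 129S1/SVImJ, and each gave 1 library at each of 3 stages. ESCs grew without feeders on gelatin in serum and LIF. At cXENp1 the cells had left LIF for XEN medium and were then held for 48 hours in activin A (10 ng/mL) and all-trans retinoic acid (0.01 µM). By cXENp3 they had gone through a passage on inactivated fibroblast feeders and back to gelatin. XENB1 (129S1) and XEN5 (129S1/SVImJ) are established wild-type XEN lines, grown without feeders in medium conditioned by fibroblasts, with 1 library each. Here "Zfp281-present" means WT3 and Rescue3.34 and "KO" means KO3.34 and KO2.6, so a group at 1 stage holds 2 libraries. Each line is a single line and Rescue3.34 descends from KO3.34, so p-values measure the spread between these libraries. Values are the FPKM that the authors deposited, means are given ± SD with n = 2 unless another n is stated, and no count of reads stands behind them, so the depth is unknown.

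Cells of the early embryo take up large amounts of glucose, mainly through facilitative carriers of family 2, and release lactate through carriers of family 16. Amino acids enter by exchangers and sodium-coupled carriers, some of which need a shared heavy chain (Slc3a2) to reach the surface. Primitive endoderm and its derivatives form an absorptive, strongly secretory epithelium. Secretion depends on carriers of family 35 that bring nucleotide sugars into the Golgi and the endoplasmic reticulum. It also depends on families 30 and 39, which move zinc into and out of the secretory pathway. The class of nucleosides and nucleotide sugars takes in all of family 35, including Slc35b1, a carrier of ATP. Most family 25 carriers sit in the inner mitochondrial membrane, and the class called mitochondrial here takes in the whole family.

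Zfp281 stood at 25.1 to 38.6 FPKM in the 6 libraries of WT3 and Rescue3.34, at 1.29 to 3.96 in KO3.34, was listed at 0 in KO2.6 ESC and cXENp1 with 0.559 at cXENp3, and at 10.6 and 12.5 in the XEN lines. The summed level of 8 XEN markers (Gata4, Gata6, Sox17, Foxa2, Dab2, Sox7, Pdgfra, Cubn) was 941 to 1410 FPKM in KO cXENp3 and XEN libraries, and 5.55 and 13.5 in WT3 and Rescue3.34 at cXENp3. Zfp281-present cells at cXENp3 instead held 2654 and 1631 FPKM of 5 ESC markers (Pou5f1, Sox2, Nanog, Esrrb, Zfp42), against 328 in KO3.34 and 65.9 in KO2.6, so at that stage the label cXEN and the markers part for these lines. KO2.6 stood apart earlier: its XEN markers summed to 48.4 FPKM in ESC (others 1.03 to 5.93) and 483 at cXENp1 (others 38.6 to 49.2). Of 7 fibroblast markers, led by Col1a1 and Col1a2, Rescue3.34 at cXENp3 held 1245 FPKM and WT3 32.9, with 268 and 340 in KO cXENp3 and 607 and 533 in the XEN lines. A sample prefix, JH, marks the WT3, Rescue3.34 and KO3.34 libraries of the ESC stage, and the prefix XH all others, so this prefix and the ESC stage can be told apart only in KO2.6.

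Of the 96 transporters, 19 were at 20 FPKM or more in all 14 libraries. The highest value lay in a KO cXENp3 or XEN library for 58 members, in an ESC library for 26, in a Zfp281-present cXENp3 library for 10 and in a cXENp1 library for 2. KO2.6 at cXENp3 alone held the highest value of 29 and XEN5 that of 21. Since the highest value decided membership, the 31 members that reached 20 FPKM in KO cXENp3 or XEN libraries alone had to be higher there, and the counts below describe the members without being evidence on their direction. By class these 31 were 7 of 16 metal and heme, 6 of 14 nucleoside and nucleotide sugar, 5 of 8 ion, 4 of 19 amino acid and 3 of 20 mitochondrial carriers. The sugar, phosphate and lipid classes held 2 each, and the monocarboxylate class 0. The members with the highest median in their class were Slc25a4, an ADP/ATP carrier (454 FPKM), Slc2a3, a glucose transporter (337), Slc3a2, the amino acid transporter heavy chain (135), Slc29a1, a nucleoside transporter (113), and Slc39a7, a zinc transporter of the secretory pathway (66.9). In the other classes they were Slc20a1, a phosphate transporter (53.3), Slc16a1, a lactate and pyruvate transporter (48.8), Slc19a2, a thiamine transporter (35.5), and Slc12a4, a potassium chloride cotransporter (21.9). Together the members made up 0.578% to 1.06% of a library's summed FPKM, lowest in Rescue3.34 at cXENp1 and highest in KO2.6 at cXENp3.

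**Figure D1:**
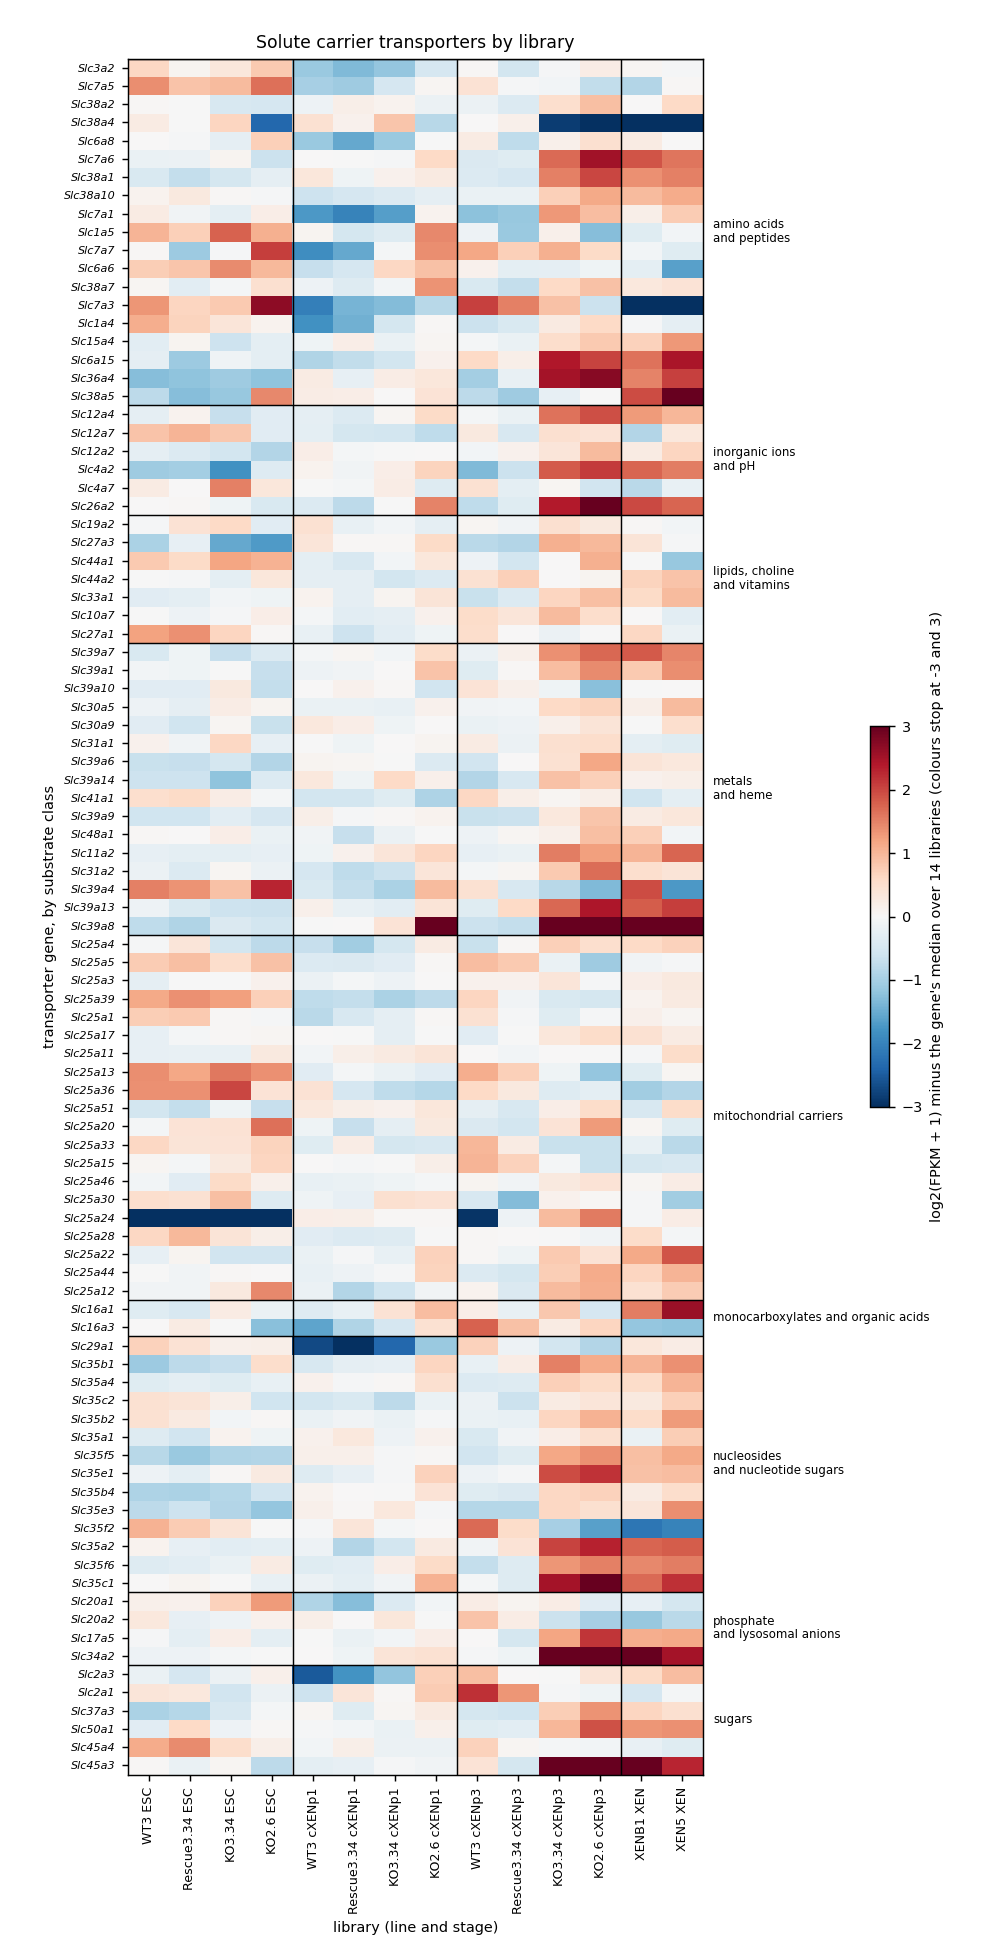
Each row is 1 of 94 of the transporters, grouped by substrate class and ordered by median level, and each column 1 of the 14 libraries, with colour showing log2(FPKM + 1) minus the gene's median (red above, blue below, colours stopping at -3 and 3). The 4 columns of KO cXENp3 and XEN libraries are red for most metal, nucleotide sugar and ion carriers, while Slc38a4, Slc7a3 and Slc35f2 are blue in the XEN columns.

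Differences were tested by limma on log2(FPKM + 1) over all genes, and genes with an adjusted p (Benjamini-Hochberg) below 0.05 count as called. In XEN lines against ESC (2 against 4 libraries) 42 members were called higher and 14 lower, where over all 12372 genes tested 22.2% were called higher and 19.7% lower, and of all genes with a highest value of at least 20 FPKM 24.7% and 19.7%. The members' median log2 difference was 0.56, against -0.02 over all genes tested. Without XEN5 25 members were called, and 34 without XENB1. In cXENp1 against ESC, paired by line over 4 lines, 3 were called higher and 19 lower (all genes 14.7% and 13.8%, genes reaching 20 FPKM 11.8% and 17.4%). With quantile normalization the split was 6 higher and 19 lower. With the library prefix as a term 2 members were called, and 14 of the 15 calls on genes named below were lost. Every call of cXENp1 against ESC given below carries this limit. The number called was 7, 8 and 14 without Rescue3.34, KO3.34 and WT3.

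KO against Zfp281-present lines gave 0 called members in ESC (all genes 1.05% higher and 0.917% lower), where 14 had an unadjusted p under 0.05. The number called changed without KO3.34, which leaves KO2.6 as the only knockout library. In ESC that library also differs from WT3 and Rescue3.34 in its prefix (XH against JH), so line and prefix cannot be told apart there. At cXENp1 1 member was called, higher in KO (all genes 0.364% and 0.121%), with 18 at an unadjusted p under 0.05. This number too changed without KO3.34, where KO2.6 is again the only knockout library. At cXENp3 50 were called higher and 9 lower in KO (all genes 22.9% and 19.04%, genes reaching 20 FPKM 26.7% and 22.6%), with a median log2 difference of 0.79 against 0.01 over all genes tested. Quantile normalization moved the median of all genes by -0.11 there and gave 43 higher and 14 lower. Without WT3 20 were called, and 37 without Rescue3.34. Among the 46 members whose mean over all 14 libraries was at least 20 FPKM, a choice less tied to a single high library, 25 were called in that comparison. This count takes higher and lower together, and the share over all genes with such a mean was not counted. The other cells a line could hold were not separated here, and in bulk samples fewer cells of a type and less RNA per cell cannot be told apart.

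Between cXENp1 and cXENp3, in a fit not paired by line, the KO lines had 31 members called higher and 4 lower (all genes 12.5% and 8.80%). The Zfp281-present lines had 16 higher and 2 lower (all genes 4.91% and 6.01%). With either line left out 1 library remained per group, and far fewer genes were called, among the members and over all genes. The fall was therefore not particular to the transporters. The test of the difference between these changes, the interaction of passage with Zfp281, called 21 members higher and 7 lower in KO (all genes 7.19% and 4.26%). With quantile normalization that split was 14 and 11, and 0, 3 and 18 members were called without WT3, Rescue3.34 and KO2.6. KO cXENp3 against the XEN lines gave 3 called higher and 2 lower (all genes 2.64% and 1.48%), or 3 and 1 with quantile normalization, which also turned the split over all genes from 353 and 198 to 251 and 252. Here 0 were called without XEN5, 3 without XENB1 and 14 without KO3.34.

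**Figure D2:**
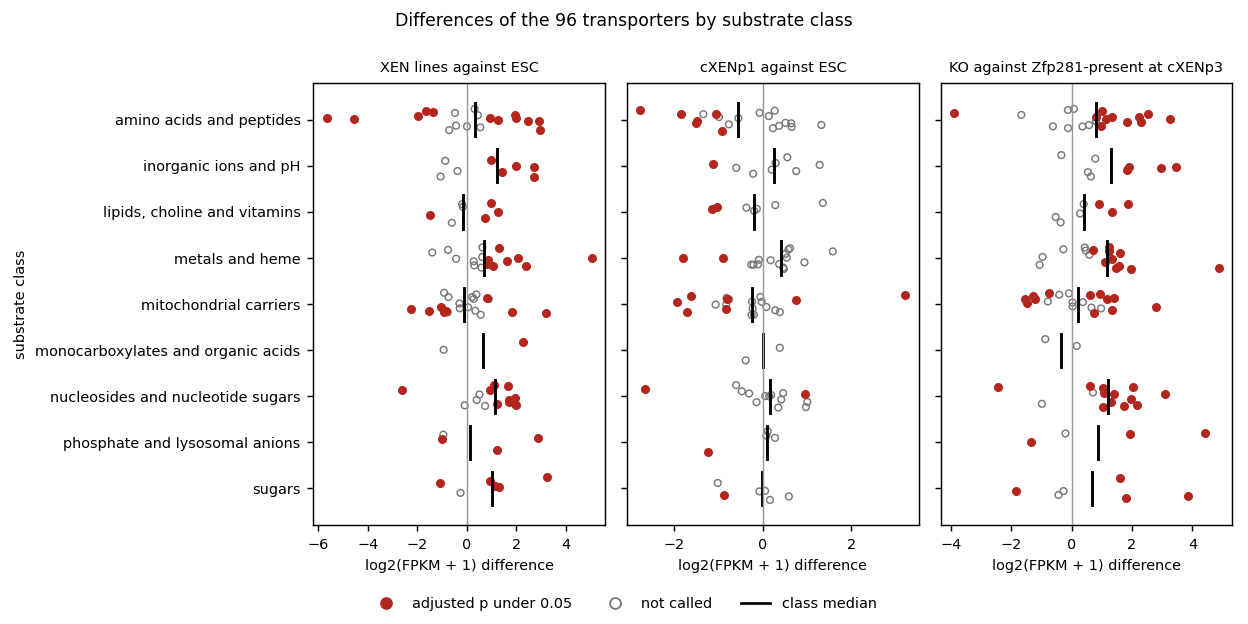
Each point is 1 transporter, placed by its difference in log2(FPKM + 1) in 3 comparisons and by substrate class (vertical jitter is random), filled red where the adjusted p was under 0.05, with a black line at each class median. At cXENp3 the nucleoside and nucleotide sugar class holds 11 members called higher and 1 lower in KO. Of its 14 members, 6 reached 20 FPKM in KO cXENp3 or XEN libraries alone. At cXENp1 against ESC most red points lie below 0.

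Of the glucose transporters, Slc2a1 was highest in Zfp281-present cells at cXENp3, and Slc2a3 stood above 200 FPKM in every library outside cXENp1. Slc2a1, the basal glucose carrier of most cells (mm9 locus chr4:118781350-118809934), was at 158, 153, 81.9 and 108 FPKM in ESC of WT3, Rescue3.34, KO3.34 and KO2.6, in that order, which holds for every list of 4 values below. At cXENp1 it was at 79.96, 159.8, 127 and 209.8, at cXENp3 at 567, 313, 120.2 and 112, and in XENB1 and XEN5 at 86.9 and 119 FPKM. WT3 and Rescue3.34 at cXENp3 were above every other library, and the KO lines at that stage overlapped the XEN lines. At cXENp3 Slc2a1 averaged 116 ± 5.87 FPKM in KO and 439.8 ± 179 in Zfp281-present cells, a log2 difference of -1.85 (SE 0.38, adjusted p = 0.0043), which passed the threshold but not without WT3 (adjusted p = 0.064). From cXENp1 to cXENp3 it rose in the Zfp281-present lines by 1.89 (SE 0.38, adjusted p = 0.013) on the log2 scale, and the KO lines differed from that change by -2.38 (adjusted p = 0.025). Without WT3 neither call stood, and without KO2.6 the interaction was lost as well. XEN lines and ESC gave a log2 difference of -0.25 (SE 0.31, adjusted p = 0.54) for Slc2a1.

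Slc2a3, a glucose carrier of high affinity (mm9 locus chr6:122677827-122692763), was at 294, 236, 299 and 373 FPKM in ESC and 57.5, 96.9, 148 and 552 at cXENp1, where KO2.6 was the 1 line above its ESC value. At cXENp3 the values were 633, 339.8, 334 and 443, and in the XEN lines 499 and 639 FPKM. KO and Zfp281-present libraries overlapped at cXENp3, and the difference of cXENp1 from ESC over all 4 lines missed the threshold with a log2 difference of -1.01 (SE 0.48, adjusted p = 0.14), but passed without KO2.6, at -1.54 (adjusted p = 0.023). XEN lines were above all 4 ESC libraries, at 569 ± 99.6 against 301 ± 56.1 FPKM (n = 4), a log2 difference of 0.92 (SE 0.23, adjusted p = 0.014), a call lost without XEN5 (adjusted p = 0.13). In Zfp281-present lines Slc2a3 rose from cXENp1 to cXENp3 by 2.62 on the log2 scale (adjusted p = 0.015), which did not pass with either line left out, and the interaction missed the threshold (adjusted p = 0.083). FPKM are per length and can be set side by side: Slc2a3 exceeded Slc2a1 in 12 of 14 libraries, the exceptions being WT3 and Rescue3.34 at cXENp1.

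Promoter sequence for Slc2a1 was available from RefSeq on the build GRCm38.p6, which is not the build of the expression table. It is shown because Slc2a1 stood highest in WT3 and Rescue3.34 at cXENp3, in the window from 250 bases before to 50 after the start (chr4:119108495-119108794, plus strand), with capitals marking the letters ACGTG, the core that hypoxia-inducible factors share with other basic helix-loop-helix factors.
Slc2a1: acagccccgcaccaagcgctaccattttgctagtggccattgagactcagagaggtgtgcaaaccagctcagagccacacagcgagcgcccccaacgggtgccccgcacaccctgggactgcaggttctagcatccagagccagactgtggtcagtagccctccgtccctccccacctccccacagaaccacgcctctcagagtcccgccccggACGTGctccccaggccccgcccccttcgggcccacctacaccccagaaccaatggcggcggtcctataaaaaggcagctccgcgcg
These letters, searched on both strands, occurred in 41 of the 105 windows of the 73 members with an entry (39.05%) and in 6447 of 32851 windows in all (19.6%). Such a match is a description of letters, and neither binding nor a cause was tested.

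Slc45a3, of the proton-coupled sugar carrier family (mm9 locus chr1:133859492-133879549), and Slc50a1, the mammalian SWEET sugar carrier, were high in KO cXENp3 and XEN cells. Slc45a3 stood at 1.20 to 4.04 FPKM in all ESC, cXENp1 and Zfp281-present cXENp3 libraries, at 41.99 and 63.7 in KO cXENp3 and at 50.9 and 17.4 in the XEN lines, with no overlap. KO exceeded Zfp281-present cells at cXENp3 by 3.86 (SE 0.37, adjusted p = 1.6e-04) and XEN lines exceeded ESC by 3.25 on the log2 scale (adjusted p = 0.00102), and both calls remained with any 1 library left out. Slc50a1 averaged 44.3 ± 19.95 FPKM in KO and 11.4 ± 0.313 in Zfp281-present cells at cXENp3, a log2 difference of 1.80 (SE 0.35, adjusted p = 0.0034), a call lost without WT3 (adjusted p = 0.054). Slc45a4 was lower in XEN lines (9.51 ± 0.781) than in ESC (22.7 ± 8.93 FPKM, n = 4), with adjusted p = 0.041, which passed only in the full set or without KO2.6. In all, 4 of 6 sugar carriers were called higher and 1 lower in XEN lines against ESC (all genes 22.2% and 19.7%). In KO at cXENp3 3 were called higher and 1 lower (all genes 22.9% and 19.04%).

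**Figure D3:**
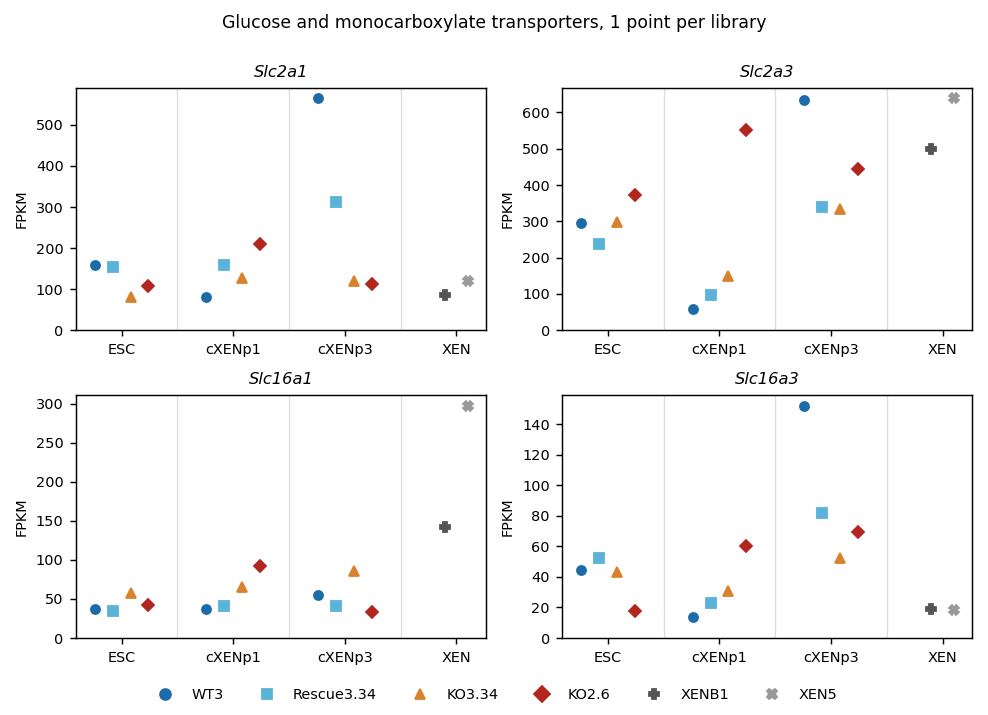
Points are the FPKM of single libraries for Slc2a1, Slc2a3, Slc16a1 and Slc16a3 by stage (horizontal axis) on linear axes from 0, with colour and shape giving the line. WT3 and Rescue3.34 at cXENp3 top the Slc2a1 and Slc16a3 panels, and the XEN lines top the Slc16a1 panel.

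The 2 monocarboxylate carriers of the set peaked in different cells. Slc16a1, which carries lactate and pyruvate in either direction, was at 37.4, 34.1, 57.9 and 41.99 FPKM in ESC and 36.8, 41.4, 65.7 and 92.2 at cXENp1. It was at 55.7, 41.2, 85.9989 and 33.6 at cXENp3 and 142 and 298 in XENB1 and XEN5. Both XEN lines were above all other libraries. The difference from ESC was 2.27 (SE 0.33, adjusted p = 0.0014), and KO cXENp3 was below the XEN lines, at -1.91 (adjusted p = 0.032), a call lost without KO2.6 or XEN5 (adjusted p up to 0.22). Slc16a3, the lactate exporter of glycolytic cells, was at 44.6, 52.1, 43.2 and 17.9 in ESC and 14.1, 22.97, 30.5 and 60.4 at cXENp1. It was at 152, 81.7, 52.6 and 69.5 at cXENp3 and 19.1 and 18.4 in the XEN lines. In Zfp281-present lines it rose from cXENp1 to cXENp3 by 2.57 on the log2 scale (SE 0.47, adjusted p = 0.0084), though not with either line left out (adjusted p up to 0.46). Bsg, the chaperone that brings both carriers to the surface, was higher in XEN lines than in ESC by 1.14 (adjusted p = 0.0065, but 0.059 without XEN5) and higher in KO at cXENp3 by 1.43 (adjusted p = 0.0035, up to 0.069 without WT3 or Rescue3.34). Its relative Emb was called in neither.

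Among the 19 carriers of amino acids and peptides, 6 were called lower and 0 higher at cXENp1 against ESC (all genes 13.8% and 14.7%). In KO at cXENp3 10 were called higher and 1 lower (all genes 22.9% and 19.04%). Slc7a5, the exchanger of large neutral amino acids, was at 227, 157, 166 and 271 FPKM in ESC and 42.2, 40.5, 60.4 and 89.9 at cXENp1, with no overlap. It was at 116, 84.3, 80.8 and 50.7 at cXENp3 and 46.4 and 87.2 in the XEN lines. The log2 difference at cXENp1 was -1.84 (SE 0.32, adjusted p = 0.0043) and was called with any line left out. The library prefix as a term removed 14 of the 15 named calls of cXENp1 against ESC. The calls of Slc7a5, Slc29a1 and Slc25a39 therefore cannot all stand with that term. Slc3a2, the heavy chain of Slc7a5, was at 207, 142, 172 and 232 in ESC and 61.9, 53.1, 59.7 and 95.9 at cXENp1. It was back at 138, 92.5, 133 and 158 FPKM at cXENp3. Slc3a2, Slc1a4, Slc6a8, Slc7a1, Slc7a3 and Slc38a10 were at their lowest of the 3 stages at cXENp1 in each of the 4 lines, 6 of the 15 members of all classes with that pattern. The FPKM of all rows summed to 424406 to 520485 at cXENp1 and to 678479 to 718138 in ESC, and the part of this scale in the lower values was not tested.

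Slc7a3, a cationic amino acid carrier, was at 27.9, 16.96, 18.9 and 73.4 FPKM in ESC, 1.77, 3.36, 3.67 and 5.43 at cXENp1 and 46.6, 31.7, 20.03 and 6.36 at cXENp3, and at 0.383 and 0.168 in the XEN lines. It was lower at cXENp1 than in ESC in every line (-2.76, adjusted p = 0.013, but 0.061 without KO3.34). XEN lines were lower than ESC, with a log2 difference of -4.54 (SE 0.55, adjusted p = 5.6e-04), and KO cXENp3 kept 13.2 ± 9.67 FPKM against 0.275 ± 0.152 in the XEN lines (adjusted p = 0.014, but 0.084 without XEN5). Its relative Slc7a1 did not follow: KO cXENp3 held 68.8 and 52.6 FPKM against 11.2 and 11.9 in Zfp281-present cells, a log2 difference of 2.29 (SE 0.46, adjusted p = 0.004), lost without WT3 (adjusted p = 0.081).

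Slc38a4, a sodium-coupled carrier of neutral and cationic amino acids, was lowest in XEN cells. It was at 90.9, 75.5, 118 and 13.98 FPKM in ESC and 104, 83.01, 135 and 42.5 at cXENp1. It was at 76.4, 83.9, 9.64 and 1.78 at cXENp3 and 0.183 and 0.165 in the XEN lines. KO2.6 had the lowest value of the 4 lines at each stage. XEN lines were below ESC, with a log2 difference of -5.66 (SE 0.75, adjusted p = 8.5e-04), and KO was below Zfp281-present cells at cXENp3, with -3.90 (SE 0.90, adjusted p = 0.0075), which did not pass without WT3 or without Rescue3.34 (adjusted p up to 0.1011). Its relatives went the other way. Slc38a1 and Slc38a2, sodium-coupled neutral amino acid carriers, were higher in KO at cXENp3 by 2.22 (adjusted p = 2.3e-04) and 1.00 (adjusted p = 0.0043, up to 0.077 without WT3 or Rescue3.34). Slc38a5 was at 0.363 to 7.90 FPKM outside the XEN lines and at 11.8 and 25.7 in them. It was above ESC in XEN lines by 2.93 (adjusted p = 0.016) and in KO cXENp3 below XEN, with -2.62 (adjusted p = 0.046), and both calls were lost without XENB1 or XEN5 (adjusted p up to 0.14 and 0.27).

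Slc36a4, of the proton-coupled amino acid carrier family, was at 0.354, 0.414, 0.561 and 0.414 FPKM in ESC and 2.89, 1.75, 2.80 and 3.09 at cXENp1. It was at 0.598, 1.80, 17.3 and 20.8 at cXENp3 and 8.19 and 12.6 in the XEN lines. KO cXENp3 and XEN libraries were above all others, with log2 differences of 3.24 (SE 0.30, adjusted p = 1.3e-04) in KO at cXENp3 and 2.96 (adjusted p = 1.1e-04) in XEN lines. The rise between passages was larger in KO by 2.97 (adjusted p = 0.005, but 0.17 without WT3). Slc7a6, an exchanger that pairs with Slc3a2, averaged 155 ± 61.5 FPKM in KO and 25.2 ± 0.942 in Zfp281-present cells at cXENp3 (adjusted p = 5.0e-04). Slc6a15, a carrier of branched-chain and other neutral amino acids, rose in the KO lines between passages by 2.43 (adjusted p = 0.0011). Slc6a6, the taurine carrier, was the 1 member called between KO and Zfp281-present cells at cXENp1, at 32.3 ± 4.34 against 11.96 ± 1.22 FPKM (adjusted p = 0.039), a call lost without WT3, Rescue3.34 or KO2.6 (adjusted p up to 0.67).

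**Figure D4:**
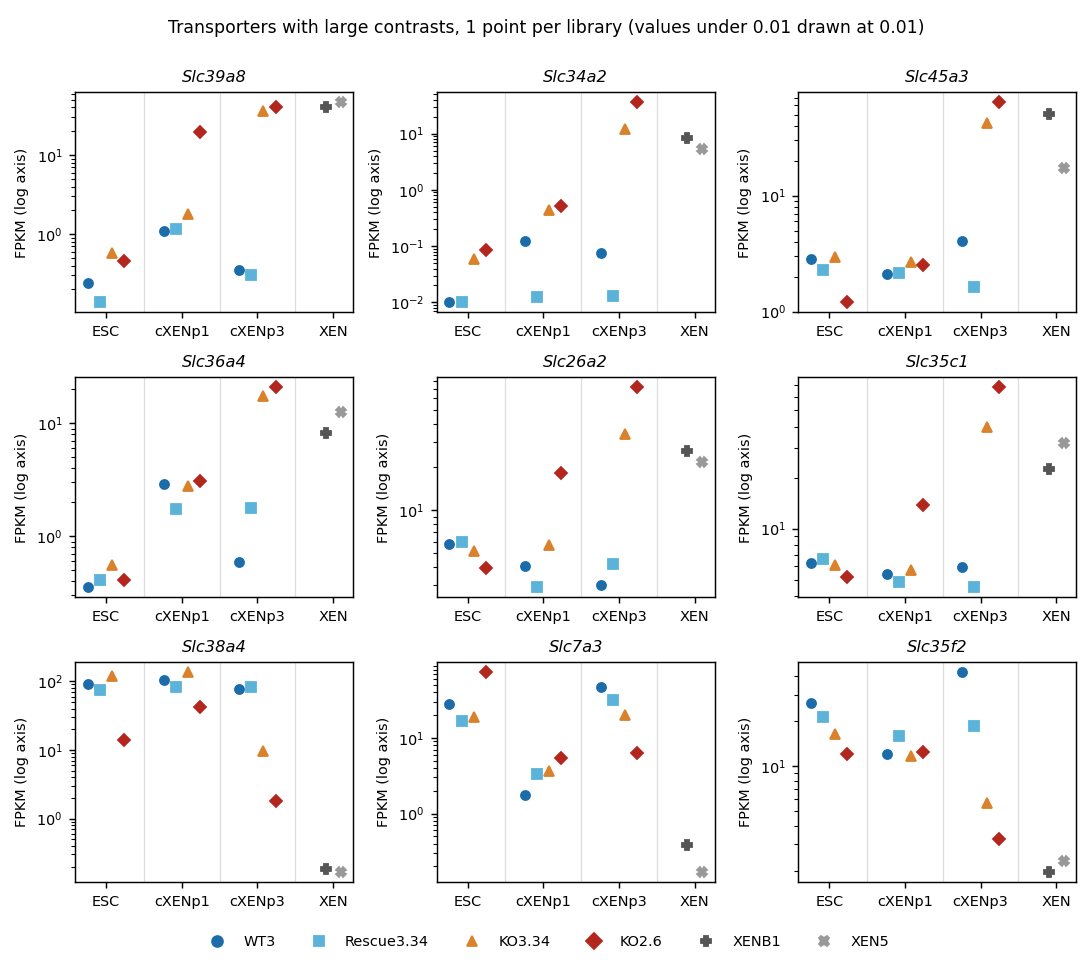
Points are the FPKM of single libraries on log axes for 9 transporters with large differences, by stage, with colour and shape giving the line and values under 0.01 drawn at 0.01. Slc39a8, Slc34a2, Slc45a3, Slc36a4, Slc26a2 and Slc35c1 are high in KO cXENp3 and XEN libraries, and Slc38a4, Slc7a3 and Slc35f2 are lowest in the XEN lines.

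Among 16 metal and heme carriers, 8 were called higher and 0 lower in XEN lines against ESC (all genes 22.2% and 19.7%). In KO at cXENp3 10 were called higher and 0 lower (all genes 22.9% and 19.04%). Since 7 of the 16 reached 20 FPKM in KO cXENp3 or XEN libraries alone, the choice of members fixed part of these counts. Slc39a8, an importer of zinc and manganese (mm9 locus chr3:135488455-135551536), was at 0.243, 0.137, 0.569 and 0.451 FPKM in ESC and 1.09, 1.15, 1.80 and 19.5 at cXENp1. It was at 0.348, 0.302, 36.1 and 40.2 at cXENp3 and 41.1 and 46.3 in the XEN lines. It was near absent from Zfp281-present cells at cXENp3, and KO2.6 already held 19.5 FPKM at cXENp1, beside its XEN marker sum of 483. The part of other cell types in that value was not tested. XEN lines exceeded ESC by 5.06 on the log2 scale (SE 0.26, adjusted p = 1.6e-05), called with any 1 ESC library left out. Without XENB1 or XEN5 Slc39a8 did not pass the filter, so the dependence of this call on either XEN line could not be tested. KO exceeded Zfp281-present cells at cXENp3 by 4.88 (SE 0.67, adjusted p = 7.1e-04), called with any 1 line left out. The rise in the KO lines between passages, 2.37 (adjusted p = 0.033), was lost without KO3.34 (adjusted p = 0.054).

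Slc39a7, which releases zinc from the endoplasmic reticulum, was at 58.7, 73.8, 174 and 222 FPKM at cXENp3 and 242 and 185 in the XEN lines, against 48.03, 61.3, 40.7 and 50.03 in ESC, a log2 difference of 1.56 (SE 0.25, adjusted p = 0.0014) for KO at cXENp3 that was lost without WT3 (adjusted p = 0.0600). Slc39a13, a zinc carrier of the early secretory pathway, averaged 24.6 ± 8.59 FPKM in KO and 5.79 ± 3.09 in Zfp281-present cells at cXENp3 (adjusted p = 0.0035, but 0.092 without WT3) and 21.7 ± 2.97 in XEN lines against 3.30 ± 0.698 in ESC (n = 4, adjusted p = 3.4e-04). Slc30a5, which loads zinc into the secretory pathway, averaged 41.7 ± 1.74 FPKM in KO and 25.02 ± 0.238 in Zfp281-present cells at cXENp3 (adjusted p = 0.011, up to 0.18 without WT3 or Rescue3.34), and Slc39a9, a zinc carrier of the Golgi, 18.5 ± 4.88 and 7.12 ± 0.118 (adjusted p = 0.0023, but 0.079 without WT3). Slc11a2, the divalent iron carrier, was at 8.31, 8.58, 30.7 and 24.9 at cXENp3 (adjusted p = 5.0e-04 for KO). Slc39a4, a zinc importer of absorptive epithelia, split the XEN lines, with 22.9 FPKM in XENB1 and 0.858 in XEN5. It was lower at cXENp1 than in ESC (adjusted p = 0.017), a call lost without Rescue3.34 or KO3.34 (adjusted p up to 0.093). Slc41a1, a magnesium carrier, was lower at cXENp1 than in ESC, at -0.90 on the log2 scale (adjusted p = 0.0092, up to 0.072 without WT3 or Rescue3.34) and higher again at cXENp3 in Zfp281-present lines by 0.94 (adjusted p = 0.038, up to 0.82 with either line left out). The metal-binding Mt1 and Mt2, which are no carriers, were lower in XEN lines than in ESC, with log2 differences of -4.52 and -5.88 and higher in KO cXENp3 than in XEN lines by 3.78 and 3.83, all called with any 1 line left out.

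Slc39a8 and the GDP-fucose carrier Slc35c1 had promoter entries holding the letters AGATAA, the core that GATA factors bind, and are printed because both were high where the XEN marker sum, which includes Gata4 and Gata6, was high. The windows are chr3:135825407-135825706 (plus strand) and chr2:92460469-92460768 (minus strand), RefSeq on GRCm38.p6, 5′ to 3′ along the gene, with the match on either strand in capitals.
Slc39a8: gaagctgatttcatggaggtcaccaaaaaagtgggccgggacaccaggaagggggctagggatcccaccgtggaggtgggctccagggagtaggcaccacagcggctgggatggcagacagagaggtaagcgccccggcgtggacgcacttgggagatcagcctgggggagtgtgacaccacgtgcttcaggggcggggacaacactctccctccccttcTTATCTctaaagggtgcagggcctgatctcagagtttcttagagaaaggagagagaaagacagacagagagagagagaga
Slc35c1: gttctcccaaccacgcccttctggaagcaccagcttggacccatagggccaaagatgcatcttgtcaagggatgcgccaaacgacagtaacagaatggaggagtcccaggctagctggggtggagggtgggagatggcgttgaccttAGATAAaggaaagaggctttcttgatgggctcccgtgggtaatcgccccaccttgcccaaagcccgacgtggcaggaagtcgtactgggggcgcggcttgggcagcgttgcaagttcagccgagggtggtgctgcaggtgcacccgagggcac
The letters AGATAA on either strand occurred in 9 of 105 windows of members (8.57%) and in 3672 of all 32851 (11.2%), and no binding data were used. Slc39a8 and Slc35c1 were picked by their level from 8 members holding these letters, and control by GATA factors was not tested. Of 3 other motifs searched on both strands, the cAMP response half-site TGACGT occurred in 14 windows of members (13.3%, all windows 7.51%), the amino acid response element TGATGNAA in 4 (3.81%, all 3.97%), and the endoplasmic reticulum stress element in 0 (all 0.119%).

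Of 14 carriers of nucleosides and nucleotide sugars, 11 were called higher and 1 lower in KO at cXENp3 (all genes 22.9% and 19.04%). In XEN lines 9 were called higher and 1 lower (all genes 22.2% and 19.7%). The choice of members fixed part of these counts, since 6 of the 14 reached 20 FPKM in KO cXENp3 or XEN libraries alone. Slc35c1, which brings GDP-fucose into the Golgi, was at 6.29, 6.66, 6.13 and 5.19 FPKM in ESC and 5.4, 4.85, 5.74 and 13.7 at cXENp1. It was at 5.93, 4.51, 39.9 and 68.2 at cXENp3 and 22.6 and 32.1 in the XEN lines. The groups did not overlap at cXENp3, with a log2 difference of 3.11 (SE 0.37, adjusted p = 3.4e-04), and XEN lines were above ESC by 1.99 (adjusted p = 6.8e-04), each called with any 1 line left out. Slc35a2, the UDP-galactose carrier, averaged 32.05 ± 1.39 FPKM in XEN lines and 7.51 ± 1.22 in ESC (n = 4, adjusted p = 5.3e-04), and rose in the KO lines from 8.11 ± 3.61 at cXENp1 to 42.4 ± 5.89 at cXENp3 (adjusted p = 0.0015). Slc35e1 was at 13.5, 14.8, 61.3 and 71.7 at cXENp3 and 28.8 and 29.4 in the XEN lines, so that KO exceeded both Zfp281-present cells, by 2.15 (adjusted p = 3.1e-04), and XEN lines, by 1.16 (adjusted p = 0.022, up to 0.097 without XENB1 or XEN5). Slc35b1, the carrier of ATP into the endoplasmic reticulum, was at 29.5, 40.7, 102 and 75.6 FPKM at cXENp3 (adjusted p = 0.027, up to 0.26 without WT3 or Rescue3.34) and 71.2 and 90.9 in XEN lines.

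Slc35f2 was the class's 1 member called lower in both comparisons. It was at 26.4, 21.5, 16.4 and 12.1 FPKM in ESC and 11.97, 16.0001, 11.8 and 12.5 at cXENp1. It was at 42.5, 18.6, 5.68 and 3.26 at cXENp3 and 1.95 and 2.30 in XEN lines, with log2 differences of -2.63 (adjusted p = 6.7e-04) in XEN lines and -2.45 (adjusted p = 1.0e-03) in KO at cXENp3. Slc29a1, the equilibrative nucleoside carrier, had its low at cXENp1 in every line. It was at 181, 152, 125 and 127 FPKM in ESC and 16.4, 12.8, 21.1 and 51.5 at cXENp1. It was at 182, 101, 75.8 and 61.03 at cXENp3 and 142 and 131 in XEN lines. The stages ESC and cXENp1 did not overlap, with a log2 difference of -2.66 (SE 0.43, adjusted p = 0.0028), called with any line left out. With the library prefix as a term, however, 14 of the 15 named calls of cXENp1 against ESC were lost, and that of Slc29a1 may be among them. In Zfp281-present lines it rose again by 3.14 (adjusted p = 0.0014, but 0.11 without WT3), and the KO lines differed from that change by -2.12 (adjusted p = 0.036), a call lost without WT3, Rescue3.34 or KO2.6 (up to 0.40). Slc35b4, a carrier of UDP-sugars, was the class's 1 member called higher at cXENp1 (0.96, adjusted p = 0.015, up to 0.071 without WT3 or Rescue3.34).

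Of 20 mitochondrial carriers, 7 were called higher and 5 lower in KO at cXENp3, 35% and 25% beside 22.9% and 19.04% of all genes. In XEN lines 3 were higher and 5 lower, 15% and 25% beside 22.2% and 19.7%. These counts over 20 genes are given as a description of the class, with medians of 0.20 and -0.11 on the log2 scale. The ADP/ATP carriers diverged. Slc25a5 was at 763, 839, 649 and 824 FPKM in ESC and 335, 329, 356 and 456 at cXENp1. It was at 849.9, 769, 388 and 213 at cXENp3 and 418 and 439 in XEN lines, with a log2 difference of -1.49 (adjusted p = 0.0031, but 0.087 without WT3) for KO at cXENp3. Slc25a4 was at 284, 465, 748 and 642 at cXENp3 and 686 and 736 in XEN lines, higher in KO by 0.93 (adjusted p = 0.0403), a call lost without any 1 of the 4 lines (up to 0.37). Slc25a4 exceeded Slc25a5 in both KO cXENp3 and both XEN libraries and in KO2.6 at cXENp1, 5 of 14 libraries. Both genes have closely similar copies in the genome, and how the authors' counting split shared reads is not given in the sources used here.

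Slc25a24, a calcium-regulated carrier of ATP-Mg and phosphate, was at 0.654, 0.718, 0.814 and 0.471 FPKM in ESC and 15.5, 15.1, 13.6 and 13.7 at cXENp1, with no overlap and a log2 difference of 3.22 (SE 0.68, adjusted p = 0.0093), lost without Rescue3.34 or KO3.34 (adjusted p up to 0.059). At cXENp3 it was at 0.876, 11.8, 26.8 and 40.99, so that Rescue3.34 and WT3 parted, where their 7 fibroblast markers summed to 1245 and 32.9 FPKM. The part of feeder cells in that gap was not tested. Slc25a13, an aspartate-glutamate carrier, was at 66.2, 56.2, 75.1 and 65.5 in ESC and 19.1, 23.6, 21.4 and 19.3 at cXENp1. It was at 53.1, 41.04, 22.3 and 10.4 at cXENp3 and 18.9 and 25.5 in XEN lines, and its paralogue Slc25a12 was at 9.86, 6.45, 18.5 and 20.4 at cXENp3. The KO difference was -1.55 (adjusted p = 0.0037, but 0.097 without WT3) for Slc25a13 and 1.19 (adjusted p = 0.034, up to 0.23 without WT3, Rescue3.34 or KO2.6) for Slc25a12. Slc25a39, the mitochondrial glutathione carrier, went from 259, 306, 276 and 193 in ESC to 68.3, 70.6, 60.01 and 67.4 at cXENp1. The log2 difference was -1.92 (SE 0.22, adjusted p = 6.6e-04), called with any line left out. The 15 named calls of cXENp1 against ESC include those of Slc25a24, Slc25a39 and Slc25a36. With the library prefix as a term 14 of the 15 were lost, so these calls cannot all stand with that term. Slc25a36, a pyrimidine nucleotide carrier, was lower at cXENp1 than in ESC, at -1.71 (adjusted p = 0.0041) and in XEN lines, at -2.25 (adjusted p = 0.0033). Slc25a22, a glutamate carrier, was higher in XEN lines, at 31.5 ± 11.7 against 7.89 ± 2.04 FPKM (n = 4, adjusted p = 0.0028), and Slc25a44, a branched-chain amino acid carrier, was higher in KO at cXENp3 by 1.39 (adjusted p = 0.0027, up to 0.0701 without WT3 or Rescue3.34). The phosphate carrier Slc25a3 ranged from 341 to 528 FPKM over all 14 libraries.

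Of 8 carriers of inorganic ions and pH, 5 were called higher in XEN lines and 4 in KO at cXENp3, and 0 lower. Over all genes 22.2% were higher and 19.7% lower in XEN lines, and 22.9% and 19.04% in KO at cXENp3. As 5 of the 8 reached 20 FPKM in KO cXENp3 or XEN libraries alone, the choice of members fixed part of these counts. Slc4a2, a chloride bicarbonate exchanger, was at 4.68, 4.93, 2.41 and 8.09 FPKM in ESC and 11.8, 10.1, 12.7 and 17.9 at cXENp1. It was at 3.75, 6.68, 41.5 and 50.2 at cXENp3 and 39.2 and 33.8 in XEN lines, a log2 difference of 2.95 (SE 0.42, adjusted p = 7.7e-04) for KO at cXENp3. Slc26a2, the sulfate carrier that supplies proteoglycan sulfation, was at 5.82, 5.97, 5.18 and 3.92 in ESC and 4.11, 2.90, 5.69 and 18.1 at cXENp1. It was at 2.995, 4.23, 33.9 and 71.6 at cXENp3 and 25.7 and 21.7 in XEN lines, a log2 difference of 3.46 (SE 0.48, adjusted p = 6.9e-04) for KO at cXENp3. Both calls remained with any 1 line left out. Of the potassium chloride cotransporters, Slc12a4 was at 21.1, 18.98, 70.1 and 86.8 at cXENp3 (adjusted p = 4.7e-04 for KO), while Slc12a7 was lower at cXENp1 than in ESC, at -1.12 (adjusted p = 0.022, up to 0.12 without WT3, Rescue3.34 or KO3.34).

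Of 4 phosphate and lysosomal anion carriers, 2 were called higher and 1 lower both in XEN lines and in KO at cXENp3. The shares over all genes were 22.2% higher and 19.7% lower in XEN lines, and 22.9% and 19.04% in KO at cXENp3. Slc34a2, a sodium phosphate cotransporter of epithelia (mm9 locus chr5:53440592-53462902), was listed at 0 in ESC of WT3 and Rescue3.34 and stood at 0.0122 to 0.523 FPKM in the other ESC, cXENp1 and Zfp281-present cXENp3 libraries. It was at 12.2 and 35.9 in KO cXENp3 and 8.24 and 5.26 in XEN lines, with a log2 difference of 4.40 (SE 0.38, adjusted p = 9.4e-05) for KO at cXENp3 and 2.88 (adjusted p = 1.0e-04) for XEN lines. No fold is given against libraries listed at 0. Slc20a2, a ubiquitous phosphate carrier, went the other way, at 18.7 ± 3.31 FPKM in KO and 50.4 ± 15.3 in Zfp281-present cells at cXENp3 (adjusted p = 0.0041, but 0.092 without WT3), and at 16.7 ± 2.78 in XEN lines against 34.3 ± 6.41 in ESC (n = 4, adjusted p = 0.013, up to 0.12 without XENB1 or XEN5). Slc20a1 was at 59.4, 57.9, 86.7 and 130.4 in ESC and 27.9, 21.3, 40.1 and 50.4 at cXENp1 (adjusted p = 0.012, up to 0.067 without Rescue3.34 or KO3.34). Slc17a5, which exports sialic acid from lysosomes, was at 4.22, 2.58, 10.7 and 21.95 at cXENp3 (adjusted p = 0.0024, but 0.053 without Rescue3.34).

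Carriers of lipids, choline and vitamins had a median log2 difference of -0.16 in XEN lines (3 of 7 called higher, 1 lower) and 0.40 in KO at cXENp3 (3 higher, 0 lower). Slc27a3, of the fatty acid carrier family, was at 11.3, 19.1, 7.15 and 6.36 FPKM in ESC, 29.3, 23.4, 23.4 and 34.4 at cXENp1 and 12.7, 11.8, 48.6 and 45.6 at cXENp3, a log2 difference of 1.86 (SE 0.27, adjusted p = 8.5e-04) for KO at cXENp3. Slc33a1, which brings acetyl-CoA into the endoplasmic reticulum, averaged 21.4 ± 2.84 in KO and 7.96 ± 1.16 in Zfp281-present cells at cXENp3 (adjusted p = 0.0017, but 0.0699 without WT3). The choline carrier Slc44a1 was the 1 member called in opposite directions, lower in XEN lines, at -1.48 (adjusted p = 0.011, but 0.0996 without XEN5) and higher in KO at cXENp3 by 0.90 (adjusted p = 0.047, up to 0.31 without WT3, Rescue3.34 or KO2.6), with 13.7, 10.1, 15.6 and 33.4 FPKM at cXENp3 and 15.1 and 6.401 in XEN lines. Slc27a1 was lower at cXENp1 than in ESC, at -1.13 (adjusted p = 0.017, up to 0.11 without WT3, Rescue3.34 or KO3.34).

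XEN lines against ESC and KO against Zfp281-present cells at cXENp3 share no library, and the members' differences ran alike in them. Across the 96 transporters the log2 differences had Pearson's r of 0.84 and Spearman's rho of 0.82, and 82 (85.4%) had the same sign. These are values across genes, which are not independent replicates, and all 6715 genes that reached 20 FPKM and were tested in both gave 0.82, 0.83 and 83.9%. Of the 56 members called in the first comparison and the 59 called in the second, 36 were higher in both (64.3% and 61.0%) and 7 lower in both (12.5% and 11.9%). The 31 members that reached 20 FPKM in KO cXENp3 or XEN libraries alone add to the higher count by the way they were chosen. The same overlap was not counted over all genes, so these counts only describe the members.

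**Figure D5:**
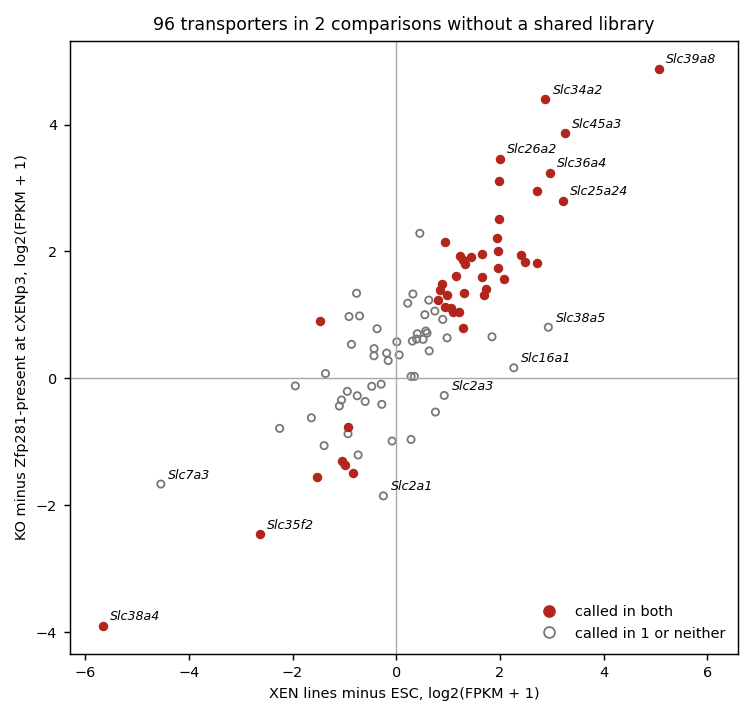
Each point is 1 of 96 transporters, with its log2(FPKM + 1) difference between XEN lines and ESC on the horizontal axis and between KO and Zfp281-present cells at cXENp3 on the vertical axis, filled where both were called. Slc39a8 lies farthest up and right, Slc38a4 farthest down and left, and Slc2a1 lies at -0.25 and -1.85.

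Genes that work beside these transporters were followed from a list. Of 8 glycolytic genes, 5 were called lower and 1 higher at cXENp1 against ESC (all genes 13.8% and 14.7%). Among the lower ones were Ldha, lactate dehydrogenase, at -1.70 (adjusted p = 0.014, up to 0.096 without Rescue3.34 or KO3.34) and Hk2, hexokinase, at -1.43 (adjusted p = 0.005). In KO at cXENp3 3 were lower and 0 higher (all genes 19.04% and 22.9%). They included Gpi1 at -1.33 (adjusted p = 0.0403), a call lost without WT3 or Rescue3.34. In XEN lines 1 of 7 tested was lower and 0 higher (all genes 19.7% and 22.2%), Pfkp at -3.64 (adjusted p = 3.6e-04). The mitochondrial pyruvate carrier subunit Mpc2 was higher in KO at cXENp3 by 0.97 (adjusted p = 0.0037, but 0.092 without WT3). The transferrin receptor Tfrc, which supplies iron upstream of Slc11a2, was lower there, at -1.65 (adjusted p = 0.0496, up to 0.31 without WT3 or Rescue3.34). Among 15 Slco genes, which carry organic anions, 11 stayed below the filter in KO at cXENp3, 2 were called higher and 2 lower (all genes 22.9% and 19.04%). Slco2a1, the prostaglandin carrier, stood at 0.551, 0.416, 82.8 and 273 FPKM at cXENp3 and 75.5 and 104 in XEN lines, a log2 difference of 6.68 (adjusted p = 1.9e-04). Slco3a1 was the other higher one, at 2.82 (adjusted p = 0.025, up to 0.23 without WT3 or Rescue3.34). Slco4c1, at 3.98, 2.89, 0.257 and 0.0602 FPKM, was lower in KO, with -1.93 (adjusted p = 0.0044, but 0.084 without WT3), as was Slco4a1, with -1.09 (adjusted p = 0.038, up to 0.43 without WT3, KO3.34 or KO2.6).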

How the data were processed

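PolyA RNA-seq libraries (14, paired reads of 150 bp, per the labels' protocols) were analysed from 1 table of FPKM that the authors deposited, per gene locus. Per the submitters' processing notes, STAR 2.5.3, Cufflinks 2.1.1 and the build mm9 were used, with their settings not given in the sources used here. Locus starts were shifted to count from 1. No read counts are given, so depth is unknown. No 2 libraries held identical values. The scale log2(FPKM + 1) was used throughout and understates how far low genes change. Genes with at least 1 FPKM in 2 fitted libraries were tested with limma 3.58.1 (R 4.3.3, eBayes with trend). The stage cXENp1 was compared with ESC with line as a block over 4 lines, which pairs libraries of the same line. The passage comparisons and their interaction were not paired in the main fit, and line as a block was an alternative. KO comparisons pooled the spread over 6 groups of 2. Each adjusted p is limma's, Benjamini-Hochberg over all genes of 1 comparison. The fits were tested on simulated data. Named are Slc2a1 and Slc2a3, in each comparison and class up to 2 called members with the largest rise and fall without overlap, each class's highest median, the 3 members at either side of 20 FPKM, and members listed at 0. Other members named, including Slc30a5, Slc39a9, Slc25a4, Slc25a12, Slc25a3, Slc38a1, Slc38a2, Slc7a1, Slc3a2 as a heavy chain and Slc44a1 for its opposite calls, were chosen after their values were seen. Values of 2 members counted here are not reported by name. Substrate classes follow family numbers. The members and lists were chosen with earlier results of these data known. Promoters came from RefSeq (GRCm38.p6), with 73 of 96 members matched by symbol. Other pseudocounts, filters, scalings and left-out lines were tried, as given at the end.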

Additional observations from a re-analysis of the deposited data

Results flagged for a closer look

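Within the 4 ESC or the 4 cXENp1 libraries, which mix genotypes, 22 of 192 groups of 4 values had a highest or lowest library separated from the rest by more than Dixon's 95% limit, where chance gives about 1 in 20. KO2.6 was the separated, highest library in 19 of them, and its XEN marker sums of 48.4 FPKM in ESC and 483 at cXENp1 stand beside these values. For its 5 values in ESC, KO2.6 is also the only library with the prefix XH, so line and prefix cannot be told apart there. Those reported here were, in ESC, Slc7a7 at 91.3 FPKM, Slc35b1 at 50.8, Slc25a11 at 41.3, Slc25a12 at 26.7 and Slc38a5 at 7.90. At cXENp1 the metal carriers were Slc39a1 at 60.4, Slc30a5 at 29.3, Slc39a8 at 19.5, Slc39a4 at 10.9 and Slc31a2 at 9.11 FPKM. The amino acid carriers there were Slc7a6 at 51.4, Slc38a7 at 44.4 and Slc7a1 at 29.5 and the Golgi and endoplasmic reticulum carriers Slc35b1 at 55.0 and Slc35c1 at 13.7. The mitochondrial carriers were Slc25a22 at 16.6, Slc25a44 at 15.7 and Slc25a28 at 11.9 FPKM. The other 3 were Slc4a7, a sodium bicarbonate cotransporter, highest in KO3.34 ESC at 31.05, Slc35a2, highest in WT3 ESC at 9.33, and Slc25a17, lowest in KO3.34 at cXENp1 at 29.8 FPKM.

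The change from cXENp1 to cXENp3 differed between KO and Zfp281-present lines for 28 members by limma's interaction test. Those named were larger in KO for Slc34a2 (3.92 on the log2 scale), Slc45a3 (3.65), Slc36a4 (2.97), Slc4a2 (2.52), Slc35c1 (2.40), Slc7a6 (2.24), Slc39a13 (1.89), Slc35f5 (1.88), Slc17a5 (1.77), Slc50a1 (1.76), Slc27a3 (1.75), Slc39a7 (1.32) and Slc12a4 (1.25). They were smaller in KO for Slc2a1 (-2.38), Slc35f2 (-2.27), Slc29a1 (-2.12), Slc25a5 (-1.77), Slc20a2 (-1.44) and Slc25a15 (-1.29). None of these 19 calls stood without WT3, and 17 did not stand without Rescue3.34.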

How the results depend on the processing

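Of 119 calls on named genes over the 9 comparisons, 42 stood with every line left out in turn for which the gene passed the filter. These 42 include Slc34a2 between passages in KO, which passed it in none of these fits. They include Slc36a4, Slc39a8, Slc25a24 and Slc34a2 in XEN lines against ESC, which failed it with XENB1 or XEN5 left out. Slc34a2 in KO at cXENp3, also among them, failed it with KO3.34 or KO2.6 left out. The dependence of these calls on those lines could not be tested. Directions turned in 4 results, all of the glucose carriers and none of them called: Slc2a1 at cXENp1 against ESC without KO2.6 (range -0.10 to 0.54), Slc2a3 in KO at cXENp3 without WT3 (range -0.72 to 0.18), Slc2a3 between passages in KO without KO3.34 (range -0.32 to 1.17) and Slc2a1 in KO cXENp3 against XEN without XENB1 (range -0.0392 to 0.41). With 1 line left out, the members called ranged from 25 to 62 in XEN lines against ESC, from 7 to 28 at cXENp1 against ESC, from 0 to 12 for KO in ESC, from 0 to 14 for KO at cXENp1 and from 20 to 66 for KO at cXENp3. They ranged from 28 to 30 between passages in KO, from 0 to 3 in Zfp281-present lines, from 0 to 36 for the interaction and from 0 to 14 for KO cXENp3 against XEN, where a lone library left in a group is assumed to vary like the other groups. Among the 46 members with a mean of at least 20 FPKM, fewer by construction, 22, 11, 25, 14, 14 and 2 were called in XEN against ESC, cXENp1 against ESC, KO at cXENp3, KO between passages, the interaction and KO cXENp3 against XEN. Without the filter on low values 11 were called between passages in Zfp281-present lines, 17 for the interaction and 2 for KO cXENp3 against XEN. A mean of at least 5 FPKM gave 3 for the last and 0 for KO at cXENp1, as did a pseudocount of 0.1 FPKM (0). The library prefix as a term left 2 at cXENp1 against ESC, and 14 of the 15 named calls of that comparison were lost. With line as a replicate block the passage comparisons called 39 in KO, 17 in Zfp281-present lines and 27 for the interaction, and without the block cXENp1 against ESC called 23. The 27 named genes kept their direction in XEN lines against the KO2.6 ESC library alone, which shares the XEN libraries' prefix. The causes of these changes were not tested. The counts with 1 line left out are given without the share over all genes, where the number called changed as well. They are not read as particular to the transporters.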
